A study of Caenorhabditis elegans with 3 samples.

Results

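The genes described here make or load the small-molecule transmitters of the Caenorhabditis elegans nervous system. They were chosen by name, with earlier results of these data known. The set holds 9 of the 20392 genes in the expression table, namely cho-1, unc-25, unc-47, eat-4, cat-1, cat-2, tph-1, tdc-1 and tbh-1. RNA came from whole animals of the wild-type strain N2, collected at mid-L4, within the last larval stage, after 29 h at 25 °C on OP50 bacteria without any treatment. The series held 1 group of 3 libraries, replicates 1 to 3, described as independent, so no condition, genotype or age was compared. Values are TPM, an abundance divided by transcript length and scaled so that each library sums to 1000000. Read counts, and with them the sequencing depth, cannot be had from TPM. Errors are given as the SD of the 3 libraries.

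A neuron is assigned to a transmitter by a small set of genes. A synthesis enzyme makes the transmitter, a vesicular transporter loads it into synaptic vesicles, and in cholinergic neurons a plasma membrane transporter recovers choline. In C. elegans, UNC-25 is the glutamic acid decarboxylase that makes GABA and UNC-47 is the vesicular GABA transporter. EAT-4 is a vesicular glutamate transporter, and CHO-1 is the high-affinity choline transporter. CAT-2 (tyrosine hydroxylase) and TPH-1 (tryptophan hydroxylase) start dopamine and serotonin synthesis, TDC-1 (tyrosine decarboxylase) makes tyramine, TBH-1 (tyramine beta-hydroxylase) turns it into octopamine, and CAT-1 loads all of these amines into vesicles. Most of these genes are used by small numbers of neurons. In whole-animal RNA, fewer cells of a type and less RNA per cell cannot be told apart.

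All 9 genes were above 0 in every library, and their levels spanned from 0.221 to 14.2 TPM. Of the 9, 5 reached 1 TPM in all 3 libraries, against 61.1% of all genes. These were unc-25, tdc-1, eat-4, cho-1 and cat-2, while cat-1, unc-47, tph-1 and tbh-1 did not. The median mean level was 1.26 TPM for the 9 genes and 3.48 TPM for all genes, and 7 of the 9 lay below that median of all genes. The summed level was 26.6, 28.2 and 28.3 TPM in replicates 1, 2 and 3, or 27.7 ± 0.946 (SD, n = 3), which is 0.00277% of all TPM. The GABA synthesis gene unc-25 alone gave 51.1% ± 1.74 of that sum. The other 8 genes together came to 13.5 TPM in each of the 3 libraries.

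**Figure D1:**
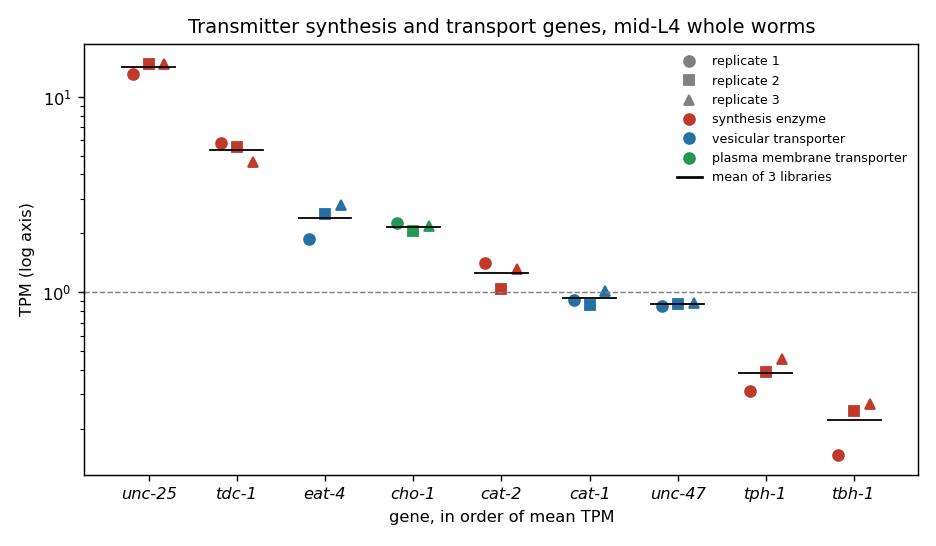
TPM (log axis) of the 9 genes in each library, in order of mean level; circles, squares and triangles are replicates 1, 2 and 3, colours give the role, black bars the mean of 3 libraries and the dashed line 1 TPM. The gene unc-25 stands alone near 14.2 TPM and tbh-1 is lowest at 0.221 TPM, and the symbols of neighbouring genes interleave for eat-4 with cho-1 and for cat-1 with unc-47.

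The GABA enzyme and transporter genes stood far apart in level. The gene unc-25 (Y37D8A.23, chromosome III, 12942651 to 12949883, WBcel235) had 13.1, 14.7 and 14.8 TPM in replicates 1, 2 and 3, a mean of 14.2 ± 0.956. Its partner unc-47 (T20G5.6, chromosome III, 10183762 to 10186260) had 0.852, 0.870 and 0.884 TPM, a mean of 0.869 ± 0.0159. Replicate 1 was the lowest library for both genes, and no library of one gene came near the other. The level of unc-47 was 0.0613 times that of unc-25, and between 0.0593 and 0.0652 times within single libraries. On log2(TPM + 1) the difference of unc-47 from unc-25 was -3.02 ± 0.08, with the same sign in 3 of 3 libraries. In the exact sign-flip permutation test over the 3 libraries (two-sided) p was 0.25, the smallest value that 3 libraries allow, and 0.295 after Benjamini-Hochberg adjustment over 13 pairs of genes. The design therefore cannot pass 0.05 for any pair, and overlap between the libraries is given instead. The annotated transcripts of unc-25 measure from 1302 to 1706 nt and that of unc-47 measures 1570 nt, lengths by which TPM already divides.

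Of the other GABA genes, unc-46 and unc-30 lay near unc-47, and the genes of uptake and breakdown lay higher. The gene unc-46, whose LAMP-like protein helps to place UNC-47 on vesicles, had 0.972 ± 0.0757 TPM, and unc-30, the homeodomain factor of the D-type GABA motor neurons, had 0.696 ± 0.0493. The plasma membrane GABA transporter gene snf-11 stood at 4.72 ± 1.06 TPM. The GABA transaminase gene gta-1, which acts in breakdown, reached 197 ± 13.9 TPM. Of these 4 genes, 2 were at 1 TPM or more in all libraries.

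Among the transporter genes outside the GABA pair, eat-4 and cho-1 were at similar levels. The glutamate gene eat-4 (ZK512.6, chromosome III, 9136887 to 9141827) had 1.86, 2.52 and 2.80 TPM in replicates 1, 2 and 3, a mean of 2.39 ± 0.482. The choline transporter gene cho-1 (C48D1.3, chromosome IV, 13209730 to 13214566) had 2.25, 2.06 and 2.19 TPM, a mean of 2.17 ± 0.0980. Replicate 1 was low for eat-4 and high for cho-1, so the values overlapped and the difference on log2(TPM + 1), 0.09 ± 0.24, changed sign between libraries, from -0.19 to 0.25 (exact sign-flip permutation p = 0.5, adjusted p = 0.5). Without replicate 1 the 2 genes did not overlap, with a difference of 0.23. The level of eat-4 was 2.75 times that of unc-47, from 2.18 to 3.17 times within libraries, with no overlap.

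The other glutamate genes were mostly above eat-4. Of 16 listed genes for glutamate transport and for glutamine conversion, 15 were at 1 TPM or more in all libraries. The related transporter genes vglu-2 and vglu-3 had 7.85 ± 1.40 and 1.02 ± 0.909 TPM, the second of them with 2.07 TPM in replicate 3 and at most 0.56 in the others. The plasma membrane glutamate transporter gene glt-1 stood at 51.2 ± 2.57 TPM, and its relatives glt-3, glt-4, glt-5, glt-6 and glt-7 ranged from 1.14 to 4.89. The glutaminase genes glna-1, glna-2 and glna-3 lay between 3.67 and 8.68 TPM, and the glutamine synthetase gene gln-3 was highest of the list at 100.2 ± 11.2.

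The acetylcholine genes that define the cholinergic neuron, cha-1 (choline acetyltransferase) and unc-17 (vesicular acetylcholine transporter), overlap in the annotation and share the sequence name ZC416.8. The table has 1 row under that name, at 3.91, 3.59 and 3.57 TPM in replicates 1, 2 and 3 (3.69 ± 0.190). That it holds both genes is inferred from the shared name only, and the 2 genes cannot be told apart in it. That row was above cho-1 in each library. The transporter gene snf-6, of the acetylcholine and choline transporter at neuromuscular junctions, had 6.39 ± 0.410 TPM, and the acetylcholinesterase genes ace-1, ace-2, ace-3 and ace-4 had 3.77 ± 0.859, 10.7 ± 1.72, 1.28 ± 0.186 and 0.721 ± 0.350. The COE factor gene unc-3, which sets cholinergic motor neuron identity, was far lower, at 0.323 ± 0.0261 TPM. Of 11 matched genes of this list, 8 reached 1 TPM in all 3 libraries.

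The amine genes ran from tdc-1, the second highest gene of the set, to tbh-1, the lowest. Their summed level was 8.58, 8.06 and 7.68 TPM in replicates 1, 2 and 3 (8.11 ± 0.453). The tyrosine decarboxylase gene tdc-1 (K01C8.3, chromosome II, 8270597 to 8273615) had 5.79, 5.52 and 4.62 TPM, a mean of 5.31 ± 0.616, and was lowest in replicate 3. The gene tbh-1 (H13N06.6, chromosome X, 15500256 to 15504895), the next enzyme of the octopamine route, had 0.147, 0.248 and 0.269 TPM, a mean of 0.221 ± 0.0653, and was lowest in replicate 1. The 2 genes did not overlap, and tdc-1 was at 24.0 times the level of tbh-1. The ratio was 39.5 in the library where it was widest and 17.2 where it was narrowest. It is uncertain, since tbh-1 lay under 1 TPM in every library and shares exonic bases with genes on the opposite strand. On log2(TPM + 1) the difference of tdc-1 from tbh-1 was 2.37 ± 0.21. In C. elegans both genes are known from neurons and from the sheath cells of the gonad, and whole animals hold both sources.

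The hydroxylase genes that start dopamine and serotonin synthesis were both low. The gene cat-2 (B0432.5, chromosome II, 257819 to 261074) had 1.42, 1.04 and 1.32 TPM in replicates 1, 2 and 3, a mean of 1.26 ± 0.197. The gene tph-1 (ZK1290.2, chromosome II, 7549335 to 7551983) had 0.314, 0.393 and 0.458 TPM, a mean of 0.388 ± 0.0723. The highest library of tph-1 was below the lowest of cat-2, and the difference of tph-1 from cat-2 on log2(TPM + 1) was -0.70 ± 0.17 in 3 of 3 libraries. The third aromatic amino acid hydroxylase gene, pah-1 for phenylalanine, stood at 49.9 ± 3.25 TPM. The transporter gene cat-1 (W01C8.6, chromosome X, 5705690 to 5710737) had 0.910, 0.859 and 1.02 TPM, a mean of 0.929 ± 0.0819. It stood at 2.39 times the level of tph-1, without overlap, and below cat-2 in each library. Its values interleaved with those of unc-47, from which it differed by 0.05 ± 0.05 on log2(TPM + 1).

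The decarboxylase gene bas-1 and the genes of the hydroxylase cofactor were more abundant than the amine genes of the set. The aromatic amino acid decarboxylase gene bas-1, which completes dopamine and serotonin, had 17.1 ± 3.40 TPM. The GTP cyclohydrolase gene cat-4 and the genes ptps-1, pcbd-1 and qdpr-1, which make or recycle the biopterin cofactor of the hydroxylases, had 26.9 ± 2.11, 13.04 ± 2.64, 41.6 ± 4.78 and 90.4 ± 4.82 TPM. The lowest of these, ptps-1, had 10.1 TPM in its lowest library, above every value of the amine genes in the set. The reuptake transporter genes were low, with the dopamine transporter gene dat-1 at 0.730 ± 0.0952 TPM and the serotonin transporter gene mod-5 at 2.86 ± 0.944. The monoamine oxidase-like genes amx-1, amx-2 and amx-3 had 3.26 ± 0.0655, 5.63 ± 2.57 and 4.60 ± 0.116 TPM. Of 19 matched genes of this list, 12 reached 1 TPM in all 3 libraries, which makes 37 of 50 over the 4 transmitter lists.

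In order of mean TPM the set ran unc-25, tdc-1, eat-4, cho-1, cat-2, cat-1, unc-47, tph-1 and tbh-1. Of the 8 neighbouring pairs in that order, 6 had no overlap between their libraries. The exceptions were eat-4 with cho-1 and cat-1 with unc-47. Neighbours that did not overlap differed in mean level by between 1.35 times (cat-2 over cat-1) and 2.67 times (unc-25 over tdc-1). Of all 36 pairs of genes in the set, 34 did not overlap. The order was taken from these same values, and no share for pairs of other genes is given, so these counts only describe the set. The synthesis enzymes held the top and the bottom of the order, while the vesicular transporters cat-1, unc-47 and eat-4 lay between 0.869 and 2.39 TPM.

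The set stood below genes that neurons share. The pan-neuronal list, 20 genes of synaptic vesicle release, peptide processing and general neuronal function, had a median log2(TPM + 1) of 3.58 ± 0.08 (SD, n = 3), and the set had 1.17 ± 0.13, with 2.13 ± 0.05 for all genes. The difference of the set from the pan-neuronal list was -2.24, -2.54 and -2.45 in replicates 1, 2 and 3, a mean of -2.41 ± 0.16. It is a description, since the genes of a list are not replicates, and its size depended on the pseudocount, from -3.04 with 0.1 to -1.35 with 5. The lowest pan-neuronal gene, the active zone gene unc-10, had 1.75 TPM, and 5 of the 9 genes lay below it, as did 40.04% of all genes. Only unc-25 exceeded the pan-neuronal median of 10.8 TPM. Most of all genes lay below that median too. The pan-neuronal gene unc-11, just under it at 10.76 TPM, had 71.75% of all genes below it. The highest gene of the pan-neuronal list was the beta-tubulin gene tbb-1 at 185 TPM, which is used outside neurons too. Genes of transcription factors that set transmitter identity were lower still, with a median log2(TPM + 1) of 0.77 ± 0.05 and 4 of 14 genes at 1 TPM or more in all libraries. In that list the homeobox gene unc-42 was highest at 4.57 TPM, and the proneural gene hlh-14 was listed at 0 in all libraries.

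**Figure D2:**
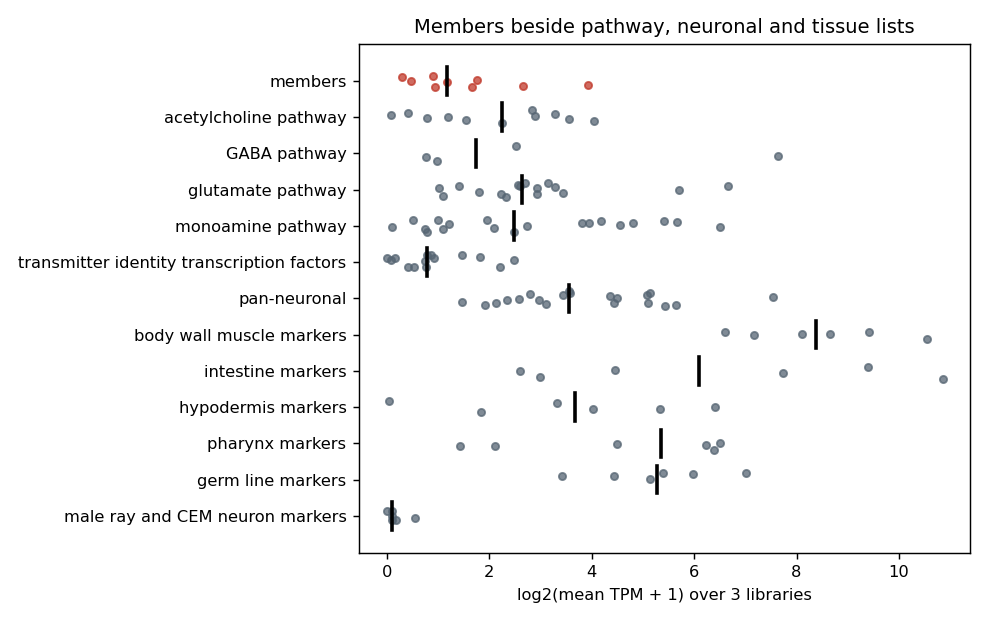
Log2(mean TPM + 1) over 3 libraries for each gene (points) of the set, the 4 transmitter pathway lists, neuronal lists and tissue marker lists, with the list median as a black bar. The median bar of the 9 genes, in red, lies to the left of that of the pan-neuronal, muscle, intestine and germ line lists and to the right of that of the male neuron markers, while single genes overlap, such as unc-25 with the lower intestine markers and tbh-1 with the male marker cwp-4.

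Markers of the tissues of a whole larva were present. All 6 body wall muscle markers (96.4 to 1498 TPM), all 6 intestine markers (5.08 to 1849), all 6 pharynx markers (1.69 to 89.7) and all 6 germ line markers (9.71 to 128) were at 1 TPM or more in all libraries. Of the 6 hypodermis markers 5 were, and the adult collagen gene col-19 had 0.0255 TPM. Dopamine is also made by sensory ray neurons of males, so cat-2 was set beside 6 genes of male ray and CEM neurons. None of these reached 1 TPM in any library, their summed level was 0.741, 0.921 and 0.767 TPM in replicates 1, 2 and 3, and the highest was cwp-4 at 0.455. Whether these genes are already on in males at mid-L4 was not examined, so a male source of cat-2 was not tested.

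Spread between libraries was modest. The coefficient of variation (CV) of the 9 genes had a median of 11.6%, against 12.1% for genes at 1 TPM or more in all libraries. When 1 library was left out, the median of the 9 genes was between 7.58% and 8.603%. A CV of 2 libraries cannot be set against one of 3, and none is given here for all genes. Over all 3 libraries the smallest CV was 1.83% for unc-47. The 1667 other genes within 1.5-fold of its level had a median of 30.96%, and 0.360% of them varied less. Without replicate 1 the CV of unc-47 was 1.12% and that of unc-25, 6.75% over all 3 libraries, was smaller still at 0.368%. The CV of cho-1 was 4.52%, or 2.19% without replicate 2, against a median of 22.8% for genes of its level, of which 4.14% varied less than cho-1 over the 3 libraries. The largest was 29.5% for tbh-1, below the median of 43.8% at that level. It rested on replicate 1, without which tbh-1 had 5.68% and cat-2 was largest at 16.8%. Each of the 9 genes had a CV below the median of genes at its own level. Genes were matched on mean TPM alone, and not on transcript length or reads, which are also tied to the spread. None of the 9 genes differed at least 2-fold between its highest and lowest library, against 34.3% of genes above 0 in a library. That share counts any gene with 0 in a library as 2-fold, while the 9 genes were above 0 in every library. The share is therefore not a like-for-like background.

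**Figure D3:**
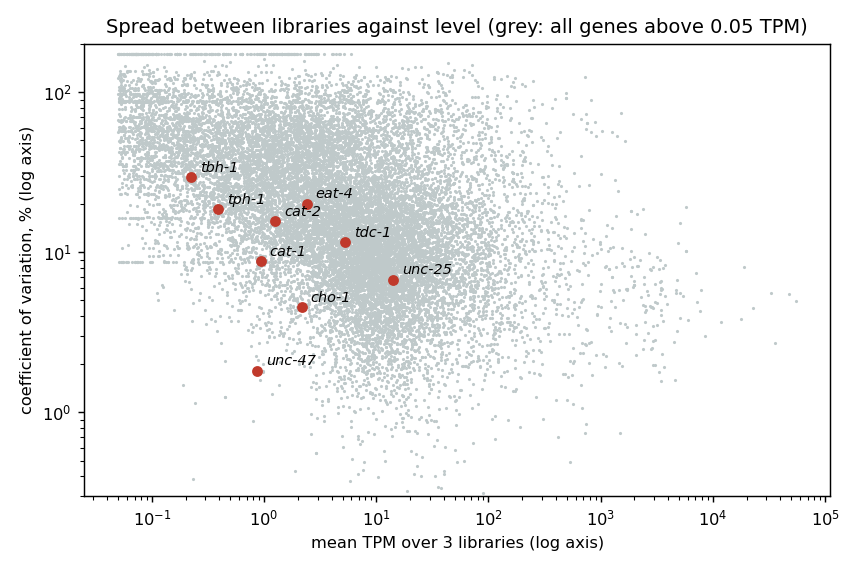
Coefficient of variation over the 3 libraries against mean TPM, both on log axes, for the 9 genes (red) and all genes above 0.05 TPM (grey); the vertical axis starts at 0.3%. The point of unc-47, at 0.869 TPM and 1.83%, lies below nearly all genes of its level, and tbh-1 is highest of the set at 29.5%.

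Replicate 1 was the lowest and replicate 3 the highest library for 5 of the 9 genes, a combination found in 25.9% of genes above 0. These were unc-25, unc-47, eat-4, tph-1 and tbh-1. Only tdc-1 had the opposite arrangement, which 26.2% of genes showed, and cho-1, cat-2 and cat-1 were lowest in replicate 2. Among pan-neuronal genes 6 of 20 were lowest in replicate 1 and highest in replicate 3. Relative to its mean, tbh-1 was at -0.59, 0.17 and 0.28 on the log2 scale in replicates 1, 2 and 3, and eat-4 at -0.36, 0.07 and 0.23. The libraries also differed in markers of other tissues. The summed level of the hypodermis markers was 228, 149 and 73.5 TPM in replicates 1, 2 and 3, of the pharynx markers 230, 285 and 303, and of the pan-neuronal list 516, 508 and 497. The last of these sums was highest in replicate 1 through tbb-1, and without that gene (an alternative chosen after seeing the data) it was 313, 322 and 330. The median log2(TPM + 1) of the pan-neuronal list was 3.51, 3.57 and 3.66. The fall in the hypodermis sum came mainly from dpy-7 (121, 90.8 and 40.6 TPM) and rol-6 (76.7, 33.2 and 7.81 TPM). Of the 6 hypodermis markers, 3 were highest in replicate 1 and lowest in replicate 3, and 1 had the opposite arrangement. The part of these differences in the values of the 9 genes was not tested.

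**Figure D4:**
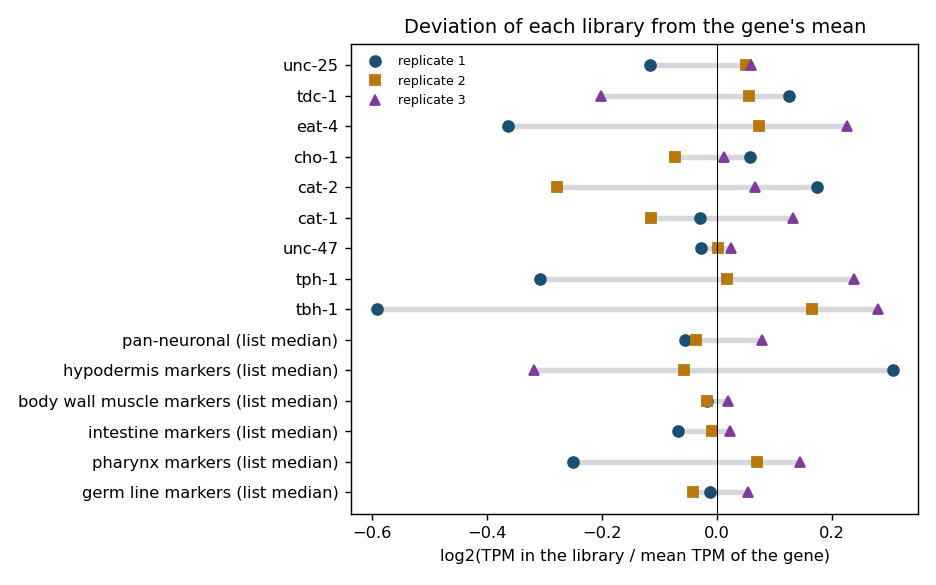
Log2 of the TPM in each library over the mean TPM of the gene, for the 9 genes in order of mean level and for the median of 6 marker lists (genes at a mean of 1 TPM or more). Replicate 1 lies far to the left for tbh-1 (-0.59), eat-4 and tph-1. The median of the hypodermis list, though not each of its genes, has the reverse arrangement, with replicate 1 at 0.31 and replicate 3 at -0.32.

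Likeness of pattern over the 3 libraries was measured as the distance between log2(TPM + 1) values centred on each gene's mean, among 70 genes of the transmitter and pan-neuronal lists. The closest gene to cho-1 was the syntaxin gene unc-64 (34.1, 32.03 and 33.3 TPM in replicates 1, 2 and 3), at a distance of 0.0014. The closest to cat-1 was the neuronal guanine nucleotide exchange factor gene rgef-1 (2.72, 2.60 and 2.93 TPM), at 0.0035. In both cases no other of the 13530 genes averaging 1 TPM or more was as close. For unc-25 the closest were the proprotein convertase gene egl-3, at 0.038, and cat-4, at 0.044. For eat-4 they were ace-2, at 0.035, and glna-2, at 0.055. At those distances 295 of the 13530 genes were as close to unc-25 as egl-3 was, and 80 as close to eat-4 as ace-2 was. For unc-47, cat-2, tph-1, tdc-1 and tbh-1, from 46 to 393 genes were as close as the closest listed gene. The second closest listed gene to cho-1, amx-3, had 454 genes as close. With 3 libraries and this many genes, such closeness describes these libraries only, and for genes under 1 TPM the pseudocount flattens the pattern.

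The genes lie on chromosomes II (3 genes), III (3 genes), X (2 genes) and IV (1 gene), and none had a copy with identical values in the table. Their spans run from 2499 bp for unc-47 to 7233 bp for unc-25, and the longest annotated transcript has between 7 exons (unc-47 and cat-2) and 12 (eat-4 and cat-1). Exons of 4 genes share bases with a gene on the opposite strand that has a row of its own, and whether strand was used in the quantification is not stated. The exons of tbh-1 share 26 bases with suox-1, which had 10.2 TPM, and 372 bases (17.05% of its exonic bases) with H13N06.7, which had 0.0361 TPM. Those of eat-4 share 79 bases with ZK512.2 (22.03 TPM) and 40 with ZK512.7 (63.3 TPM), those of tdc-1 share 73 with gei-14 (3.85 TPM), and those of tph-1 share 43 with ZK1290.10 (0.322 TPM). The exons of tph-1 also share 102 bases with ZK1290.19 and 8 with ZK1290.18, noncoding RNA genes without a row of their own. A further 21 bases are shared with a piRNA gene on its own strand, also without a row. The levels of tbh-1, eat-4, tdc-1 and tph-1 are uncertain at least to that extent. The other 5, unc-25, cho-1, cat-2, cat-1 and unc-47, share no exonic base with such a gene.

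**Figure D5:**
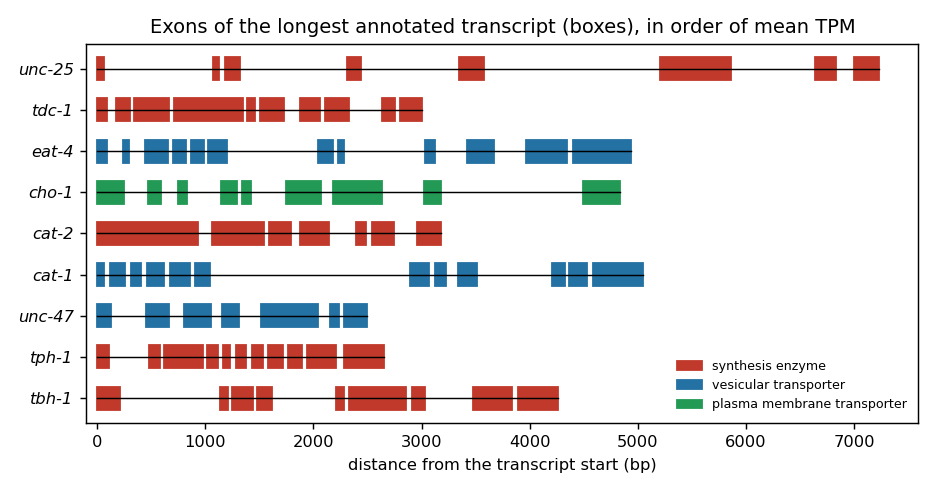
Exons (boxes) of the longest annotated transcript of each of the 9 genes, drawn to scale against distance from the transcript start in bp, in order of mean TPM and coloured by role. The gene unc-25, highest in level, has the longest span at 7233 bp, and the span of unc-47 is shortest at 2499 bp.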

How the data were processed

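Trizol RNA was DNase-treated, cleared of ribosomal RNA (Ribo-Zero Gold) and sequenced as TruSeq Stranded Total RNA libraries, per the labels' protocols. The submitters' processing notes name kallisto. Version, index, strand setting, annotation and the summing of transcripts to genes are not given in the sources used here. A TPM value per gene and library was deposited by the authors. Each column sums to 1000000, and the authors' mean column equals the mean of the 3 libraries to within 6.67e-06.

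Gene names were looked up in WBcel235 (Ensembl release 115), which holds 20133 of 20392 (98.7%). The authors' build is not stated, so coordinates describe WBcel235. No whole-read counts can be recovered from TPM, so no count model was used. Differences were computed on log2(TPM + 1) within a library and tested with an exact sign-flip permutation test, adjusted over 13 pairs. The statistics were tested on simulated data. Python 3.11.15, numpy 2.4.6, scipy 1.17.1, pandas 2.3.3 and matplotlib 3.10.9 were used.

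The members and lists were chosen with earlier results of these data known. Named were every member, genes of the transmitter and factor lists, the highest and lowest of other lists, and rol-6 after seeing the data. The symbols cha-1, unc-17 and tdc-2 matched no row. The labels call the replicates independent but name no separate cultures, so the SD measures the spread between these libraries, which may be technical. The sign-flip permutation p-value was 0.25 wherever all 3 differences had the same sign, whatever their spread.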

Additional observations from a re-analysis of the deposited data

How the results depend on the processing

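No paired analysis was possible because the series holds 1 group. The levels scale with the library total: without the 100 most abundant genes the summed level was 62.5 TPM in place of 27.7. With a limit of 5 TPM in every library 1 gene of the set passed in place of 5, and with 0.5 TPM 7 did. The share of all genes is given at 1 TPM only (61.1%), so these counts describe the set alone. The difference from the pan-neuronal list was -3.04 with a pseudocount of 0.1, -1.35 with 5 and -1.77 with only genes of mean 1 TPM or more. Without tbb-1, an alternative chosen after seeing the data, it was -2.35. The median member had 36.3% of all genes below it, and 4.07% of genes averaging 1 TPM or more. Leaving out 1 library gave a median CV between 7.58% and 8.603%, a summed level between 27.4 and 28.2 TPM, and between 6 and 7 neighbouring pairs without overlap. The CV and the overlap then rest on fewer libraries and cannot be set against those of all libraries. No mean difference of the 13 pairs changed sign under the pseudocounts, the rescaling or the leaving out of a library. The median-of-ratios rescaling moved the median of all genes by at most 0.01 on the log2 scale. The unknown read depth limits the genes under 1 TPM most, and no interval can be given for them.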
